A study of Mus musculus with 6 samples.

Results

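The genes described here carry out urea synthesis and amino acid breakdown in the liver. The list holds 51 genes, and each was measured as the brightest transcript cluster that carries its symbol alone. A transcript cluster is the array's summary over the probes of 1 transcript unit. Of the 51 genes, 43 were among the 19123 genes tested. Gstz2, Sds, Sdsl and Agxt2 had no cluster named for them in the annotation used here. Ass1, Bhmt2 and Cth had only clusters that also carry another symbol, and the single-symbol cluster of Bhmt lay under the filter on dim values. Mut was found under its current symbol, Mmut.

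The arrays compared primary hepatocytes with a hepatocyte-specific deletion of the splicing factor SRSF1 (labelled SRSF1HKO, called KO) and wild type hepatocytes (WT), with 3 arrays each, all from untreated C57BL/6 mice aged 3 months. Cells were obtained by perfusing the liver, and the labels also call them primary cultures; the sources used here give neither a time in culture nor the Cre line. The labels number the arrays separately without saying whether a number is an animal, so part of the spread within a group may be technical. The design asks which transcripts differ between the genotypes.

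The liver takes up amino acids from the portal blood, and hepatocytes oxidise their carbon or turn it into glucose. The nitrogen is moved by aminotransferases onto glutamate and aspartate, and ammonia enters the urea cycle, which starts in the mitochondrion and ends in the cytosol. Urea cycle enzymes are most abundant near the portal vein, while glutamine synthetase, which captures the remaining ammonia, is found in the cells next to the central vein. Most enzymes of tryptophan, tyrosine, methionine and histidine breakdown are far more abundant in hepatocytes than in other cells.

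The arrays differed in overall scale, with a median intensity over all clusters of 28.8, 18.6 and 20.8 in KO replicates 1, 2 and 3 and of 31.8, 39.8 and 25.6 in WT replicates 1, 2 and 3. Each gene was therefore tested with limma on the deposited values and again after quantile normalization, which gives every array the same distribution. The words rose and fell are kept for genes that passed both tests in 1 direction, at a threshold of 0.05 after Benjamini-Hochberg adjustment. Intensities are deposited values, and differences are KO minus WT in log2 units after quantile normalization with their standard error, unless stated otherwise. KO replicate 1 stood apart. Xist, expressed from the inactive X, read 9.95 in it and 2122 to 3532 in the other 5 arrays, and the Y-linked Kdm5d read 132 in it and 12.1 to 35.8 in the others, as in a male set beside females; the labels give no sex. It also correlated less with the other KO arrays (Pearson's r across genes 0.939 and 0.945) than these did with each other (0.987). Srsf1 read 242, 371 and 386 in KO and 666, 667 and 607 in WT, a difference of -0.53 ± 0.18 (adjusted p = 0.185 in limma), from a cluster that can include probes outside the deleted part. Results are therefore given with and without KO replicate 1, in which sex and any other difference of that array cannot be told apart. By the numbers in the labels, KO replicate 1 lay among the WT arrays, and KO replicates 2 and 3 lay apart at higher numbers. Without KO replicate 1, genotype therefore cannot be told apart from this numbering, whose meaning the labels do not give. The comparison without that array is thus not free of other differences.

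Of the 43 genes measured, 1 fell and none rose in KO. The gene that fell was Dpys, which encodes dihydropyrimidinase of pyrimidine breakdown. Among all genes tested, 1.4% fell and 0.842% rose, so the share of the list that fell (2.33%) was near the background. In bulk samples such as these, fewer cells of a type and less RNA per cell cannot be told apart. The median difference over the 43 genes was -0.08, beside -0.01 over all genes tested, and single genes ran from -0.80 for Dpys to 0.51 for Nags. In 26 genes the difference was negative and in 17 positive. Without KO replicate 1 the median over the list was 0.02, and 5 genes were lower in both tests (Got2, Ahcy, Prodh2, Ftcd and Dpys, 11.6% of the list against 5.28% of all genes) and none higher (0.957% of all genes). After normalization alone the same arrays gave the same 5 lower genes (5.39% of all genes) and 6 higher ones, Nags, Slc25a15, Gpt, Agxt, Ivd and Aass (14.0% of the list, against 9.71% of all genes).

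The outcome depended on the scale. On the deposited values alone 14 of the 43 genes were lower (32.6%, against 6.86% of all genes) and none was higher (0.931% of all genes). The median difference on that scale was -0.56 over the list and -0.44 over all genes. Of 52 genes measured in a companion list of other amino acid breakdown enzymes, 15 were lower and 1 higher on that scale, with a median of -0.54. After quantile normalization alone Dpys was lower (1.41% of all genes) and Gpt higher (2.73% of all genes). The 13 genes that were lower on the deposited values only were Asl, Slc25a13, Afmid, Hpd, Got2, Ahcy, Prodh, Prodh2, Aldh6a1, Mccc2, Pcca, Pccb and Ftcd. On that scale Asl, Afmid, Hpd, Prodh, Aldh6a1, Mccc2, Pcca and Pccb no longer passed without KO replicate 1. Their adjusted p was then 0.057 to 0.42 in limma.

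**Figure D1:**
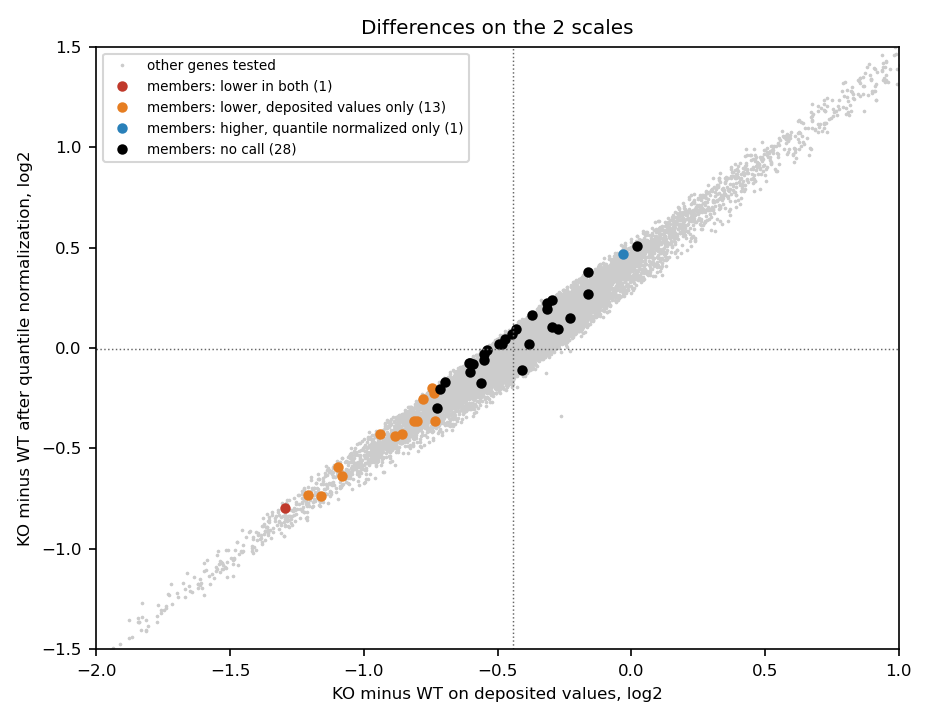
Log2 differences, KO minus WT, on the deposited values (x axis) and after quantile normalization (y axis), for the 43 genes of the list (large points, coloured by call) and the other genes tested (grey; those beyond the axes are not drawn). Dotted lines mark the medians of all genes at -0.44 and -0.01. The 14 genes called lower on the deposited values lie at the lower left, and Dpys alone among them also passed after normalization.

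KO replicate 1 lay below the other arrays for most of the list. After quantile normalization it had the lowest of the 6 values in 31 of 43 genes (72.1%), beside 28.2% of all genes tested, and on the deposited values in 41 of 43 (95.3%, beside 28.9% of all genes). Its median deviation from the WT mean over the list was -0.27, against 0.05 and 0.04 in KO replicates 2 and 3. Over all genes the same medians were 0.04, -0.01 and -0.00. Over the 52 measured genes of the companion list of other amino acid breakdown enzymes they were -0.33, 0.02 and 0.02. The low values of KO replicate 1 were therefore not particular to the list. In 13 genes (30.2%) KO replicate 1 was more than 0.5 log2 units below the WT mean, beside 12.1% of all genes. In KO replicates 2 and 3 this held for 4 and 2 genes (9.3% and 4.65%), beside 4.71% and 3.81% of all genes. These are descriptions of single arrays, with no test. The highest intensity of any cluster was 7768 in KO replicate 1 and 10035 to 19074 in the other arrays. The lowest intensity in the list was 48.9, against 0.0283 over all genes. The shares of all genes are therefore not matched to the list for brightness, and the part of brightness was not tested.

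**Figure D2:**
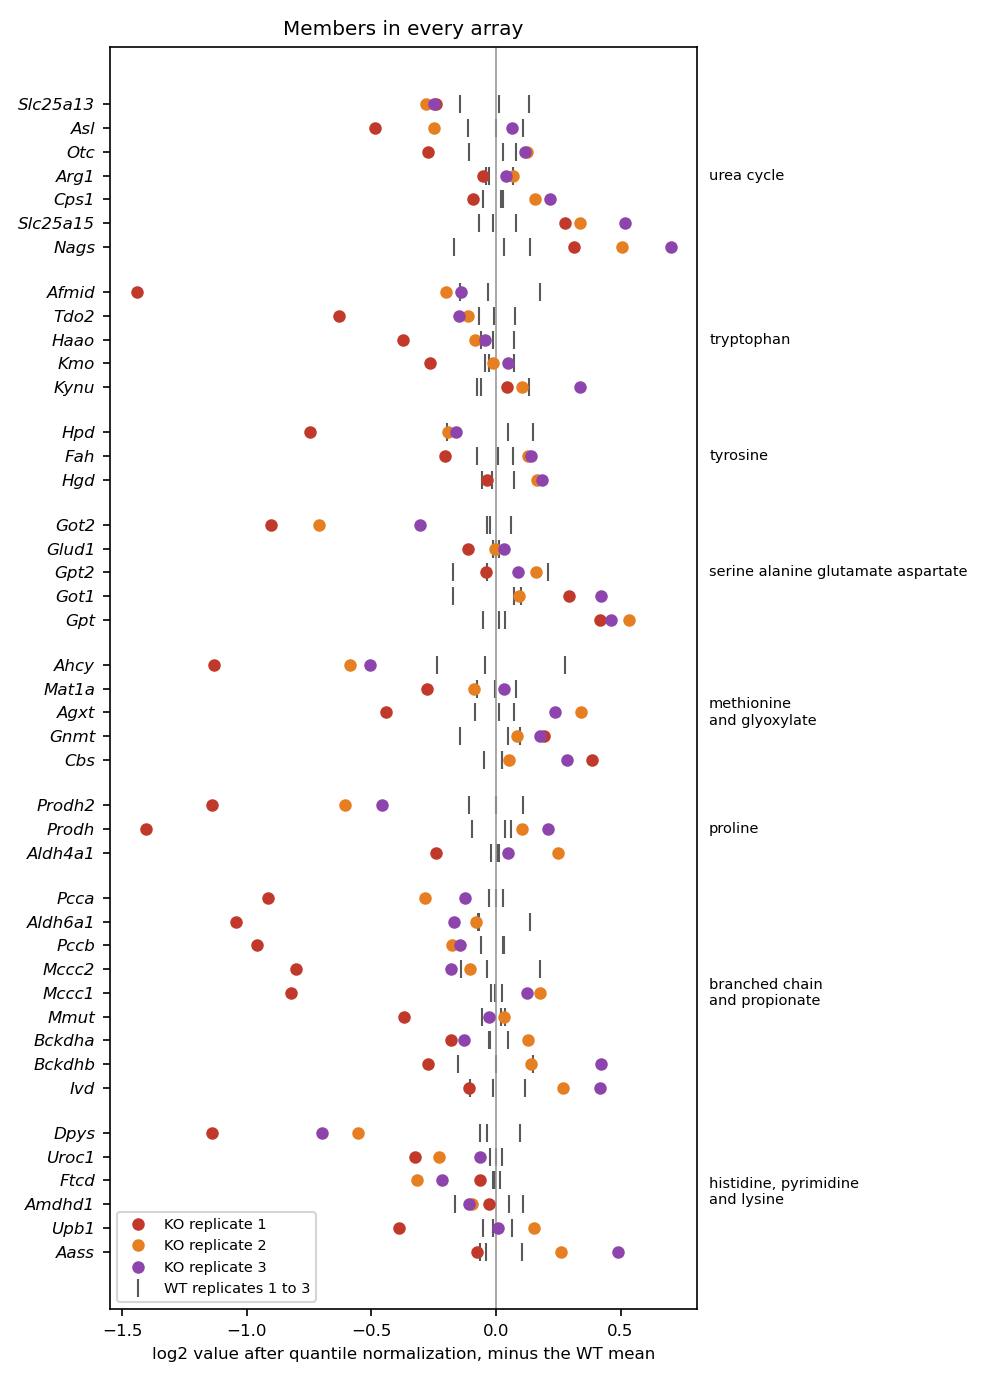
Value of each measured gene in every array, as log2 after quantile normalization minus the WT mean. Circles are the 3 KO arrays and grey bars the 3 WT arrays, and genes are grouped by pathway. KO replicate 1 (red) is the lowest value in 31 of 43 genes, and KO replicates 2 and 3 lie within 0.5 log2 units of the WT mean in 37 and 39 genes.

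None of the 7 measured genes of the urea cycle and its carriers rose or fell. Their median difference was 0.02, and 0.12 without KO replicate 1. Cps1 makes carbamoyl phosphate from ammonia in the mitochondrion, the entry step of the cycle. It read 3863, 6623 and 6197 in KO replicates 1, 2 and 3 and 7186, 6264 and 6241 in WT. KO replicate 1 was the low array and the other KO arrays lay within or close to the WT range. The difference was 0.09 ± 0.08 with a 95% confidence interval of -0.09 to 0.28 (adjusted p = 0.722 in limma).

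Otc, ornithine transcarbamylase, uses that product to make citrulline. Its intensity was 1526, 2713 and 2629 in KO and 3698, 3547 and 2565 in WT, so that the groups overlapped only through WT replicate 3. After normalization KO replicates 2 and 3 stood above all WT arrays and KO replicate 1 below them, with a difference of -0.01 ± 0.12 (95% interval -0.28 to 0.26). Arg1, the arginase that releases urea, read 2166, 3267 and 3015 in KO and 4195, 4170 and 3339 in WT. All 3 KO values were below the WT values as deposited, and the groups overlapped after normalization, at 0.02 ± 0.07 (95% interval -0.15 to 0.19).

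Asl, argininosuccinate lyase, read 1465, 2304 and 2783 in KO and 3975, 3902 and 2844 in WT. The deposited values did not overlap and passed on that scale (-0.74, adjusted p = 0.047 in limma), but not without KO replicate 1 (-0.48, adjusted p = 0.074). After normalization KO replicate 3 lay among the WT arrays and the difference was -0.22 ± 0.13 (adjusted p = 0.522). Ass1, argininosuccinate synthetase, makes the substrate of Asl. It was measured only by clusters shared with Gm5424, which were not assigned to either gene. The brighter of these read 5138, 6129 and 6666 in KO and 7970, 7119 and 6266 in WT, overlapping, and differed by 0.05. The dimmer read 655, 282 and 401 in KO and 917, 893 and 1221 in WT, lower in all KO arrays as deposited. It differed by -0.69, with KO replicate 1 among the WT arrays after normalization, and by -1.08 without that array. Neither cluster was tested.

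The enzyme and carriers that feed the cycle did not lie on 1 side. Nags makes N-acetylglutamate, the activator that Cps1 requires. It read 606, 871 and 956 in KO and 970, 896 and 554 in WT, which overlap as deposited. After normalization all KO arrays were above all WT arrays, by 0.51 ± 0.14 (adjusted p = 0.086 in limma, and 0.0036 without KO replicate 1). Slc25a15, the mitochondrial ornithine carrier, read 1466, 2029 and 2247 in KO and 2515, 2175 and 1711 in WT, and was likewise above WT after normalization only, by 0.38 ± 0.10 (adjusted p = 0.066, and 0.0063 without KO replicate 1). Neither passed with all 6 arrays, and on the deposited values their differences were 0.02 and -0.16. Without KO replicate 1 both passed after normalization only. On the deposited values their adjusted p was then 0.50 and 0.95 in limma, so neither was called in both tests.

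Slc25a13, citrin, exports the aspartate that Ass1 joins to citrulline. It read 953, 1193 and 1187 in KO and 2175, 2254 and 1416 in WT. The 3 KO arrays lay close together and below every WT array on both scales. The difference was -0.26 ± 0.10 after normalization (adjusted p = 0.256 in limma) and -0.78 on the deposited values (adjusted p = 0.036), and without KO replicate 1 it was -0.27.

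**Figure D3:**
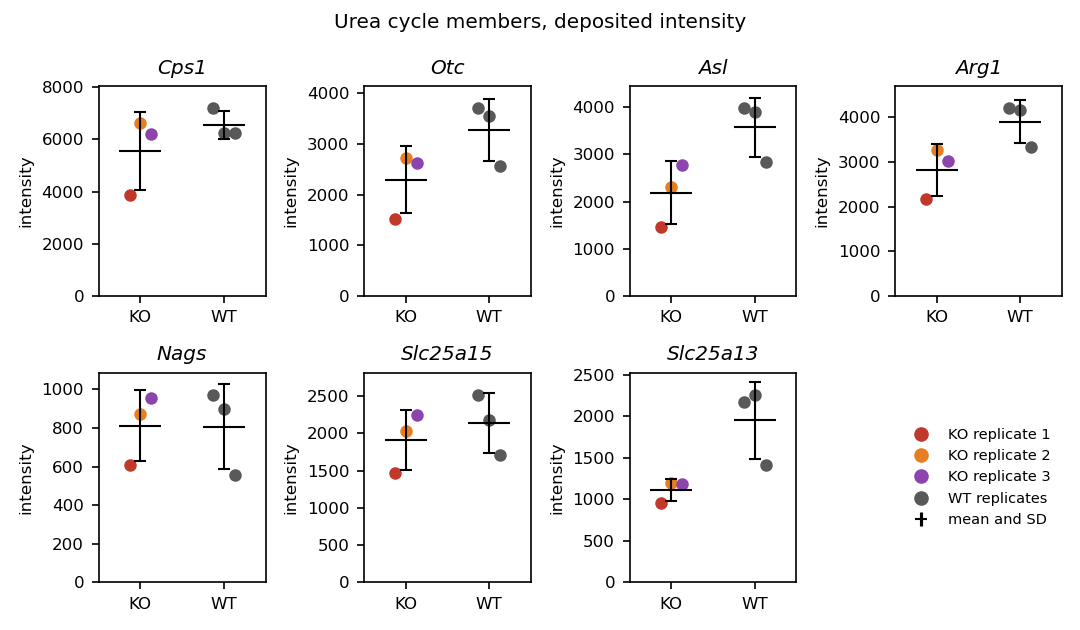
Deposited intensity of the 7 measured urea cycle genes in the 3 KO arrays (left, coloured by replicate) and the 3 WT arrays (right, grey), with the mean and SD of each group; each axis starts at 0. KO replicate 1 is the lowest KO value in all 7 panels, and the KO arrays of Slc25a13, Asl and Arg1 lie below every WT array.

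The promoters of Nags, Slc25a13 and Prodh2 are shown because these genes lie on opposite sides of WT after normalization. Nags was above WT in all KO arrays, and Slc25a13 and Prodh2 were below. None of these genes passed in both tests with all arrays. The promoters of Dpys and Gpt were not among the sequences available. The sequences are RefSeq's for GRCm38.p6, from 250 bases before to 50 after the gene start, at chr11:102145263-102145562 (plus strand), chr6:6217124-6217423 (minus strand) and chr7:30493408-30493707 (plus strand). Capitals mark matches, on either strand, to the letters searched.
Nags: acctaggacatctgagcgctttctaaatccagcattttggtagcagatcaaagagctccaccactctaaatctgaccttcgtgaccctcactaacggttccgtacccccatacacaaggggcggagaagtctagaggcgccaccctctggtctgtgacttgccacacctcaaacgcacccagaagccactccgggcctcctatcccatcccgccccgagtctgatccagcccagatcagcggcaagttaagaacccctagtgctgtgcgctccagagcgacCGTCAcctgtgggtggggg
Slc25a13: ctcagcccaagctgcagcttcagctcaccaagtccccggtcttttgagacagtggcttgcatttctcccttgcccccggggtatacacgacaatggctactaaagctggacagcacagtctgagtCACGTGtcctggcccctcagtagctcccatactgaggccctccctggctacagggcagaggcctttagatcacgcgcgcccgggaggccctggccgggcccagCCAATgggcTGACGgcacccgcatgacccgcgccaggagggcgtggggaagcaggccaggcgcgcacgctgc
Prodh2: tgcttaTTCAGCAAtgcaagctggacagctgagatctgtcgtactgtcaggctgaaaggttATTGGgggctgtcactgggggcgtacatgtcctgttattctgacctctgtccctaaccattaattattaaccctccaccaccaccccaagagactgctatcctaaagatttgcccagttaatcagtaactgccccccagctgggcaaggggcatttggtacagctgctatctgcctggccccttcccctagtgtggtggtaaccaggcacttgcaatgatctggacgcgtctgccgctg
The capitals in Nags are the short cyclic AMP response element (TGACG) on the opposite strand, 31 bases after the gene start. Slc25a13 holds the same short element, a CCAAT box and, further from the gene start, an E-box with the letters CACGTG. Prodh2 holds the letters TTGCNNAA searched for C/EBP factors and a CCAAT box, both on the opposite strand.

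Of the 43 genes measured, 35 had a promoter in the table. The CCAAT letters were in 18 of them (51.4%) and in 41.1% of 27025 genes with a promoter, the short element TGACG in 5 (14.3%, against 23.0%), CACGTG in 4 (11.4%, against 8.09%) and TTGCNNAA in 3 (8.57%, against 12.2%). The TATA letters TATAAA were in 4 (11.4%, against 15.7%) and the glucocorticoid receptor letters TGTTCT in 7 (against 21.3%). The full cyclic AMP element TGACGTCA, which contains the short one, the HNF4A letters CAAAGTCCA and the palindromic HNF1 motif were in none, beside 2.03%, 0.555% and 0.0111% of all genes. The exact HNF1 letters were in only 3 of the 27025 genes, so finding none among 35 says nothing about HNF1 sites. Near matches to any of the letters were not counted. These counts describe letters in a window and not binding.

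Of the 5 genes of tryptophan breakdown none was called in both tests. Their median difference was -0.17, and -0.06 without KO replicate 1. Tdo2 opens the indole ring as the first step, and Afmid removes the formyl group in the second. Afmid read 467, 1349 and 1370 in KO and 2271, 2521 and 1524 in WT. KO replicate 1 deviated from the WT mean by -1.44, and KO replicates 2 and 3 by -0.20 and -0.14. The difference was -0.59 ± 0.30 (95% interval -1.27 to 0.08) and without KO replicate 1 it was -0.17.

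For Tdo2 all KO arrays were below all WT arrays, by -0.30 ± 0.13, and KO replicate 1 was again the lowest, at -0.63. Downstream of it, Kmo and Haao, which lead toward quinolinate, differed by -0.08 and -0.17, and Kynu, which cleaves kynurenine, by 0.16. Acmsd diverts the product of Haao away from NAD synthesis. It belongs to a companion list of other enzymes and rose. Acmsd read 612, 878 and 1386 in KO and 522, 475 and 404 in WT. Every KO array was above every WT array, with a difference of 1.42 ± 0.21 (adjusted p = 0.0072 in limma), and 1.63 without KO replicate 1.

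In tyrosine breakdown none of 3 measured genes rose or fell. Hpd, which makes homogentisate, differed by -0.37 ± 0.15 (adjusted p = 0.289 in limma) and by -0.17 without KO replicate 1. Hgd, which opens the ring of homogentisate, and Fah, which splits fumarylacetoacetate, differed by 0.11 and 0.02.

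Gpt, the cytosolic alanine aminotransferase, was the only gene of the list that passed as higher after normalization. It read 916, 1278 and 1179 in KO and 1233, 1265 and 943 in WT, which overlap as deposited. After normalization all KO arrays lay above all WT arrays, by 0.47 ± 0.10 (adjusted p = 0.029 in limma), while the deposited values differed by -0.03 (adjusted p = 0.922). Its mitochondrial relative Gpt2 differed by 0.07 ± 0.12. After normalization the 2 aspartate aminotransferases differed in sign. Cytosolic Got1 was at 0.27 ± 0.11 (adjusted p = 0.249 in limma), with overlap of the groups, and mitochondrial Got2 at -0.64 ± 0.17 (adjusted p = 0.072). On the deposited values both differences were negative, at -0.16 for Got1 and -1.08 for Got2. Glud1, the glutamate dehydrogenase that frees ammonia, differed by -0.03.

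Got2 read 60.6, 48.9 and 75.0 in KO and 148, 172 and 122 in WT. All KO arrays were lower on both scales, and without KO replicate 1 the gene was called lower at -0.51 (adjusted p = 0.030). This cluster is dim for an abundant liver enzyme, and whether it covers the main transcript was not tested. A further Got2 cluster read 30.9, 12.7 and 18.8 in KO and 18.8, 25.6 and 25.2 in WT, with overlap.

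Genes of the methionine cycle and of glyoxylate showed no call. Mat1a, which makes S-adenosylmethionine, differed by -0.11, Gnmt, which consumes it by methylating glycine, by 0.15, and Cbs, which commits homocysteine to cysteine synthesis, by 0.24, with all KO arrays above WT for Cbs. Agxt, which converts glyoxylate to glycine, was 0.44 below the WT mean in KO replicate 1 and 0.34 and 0.24 above it in replicates 2 and 3. Ahcy, which hydrolyses S-adenosylhomocysteine, read 149, 191 and 205 in KO and 449, 410 and 410 in WT. The groups did not overlap on either scale, at -0.74 ± 0.20 (adjusted p = 0.085 in limma) and at -0.57 without KO replicate 1 (adjusted p = 0.021). The Ahcy cluster is dim as well, and a still dimmer one read 23.9, 23.5 and 17.2 in KO and 25.4, 45.7 and 19.4 in WT, where the groups overlapped, and differed by 0.06.

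Cth, which releases cysteine from cystathionine, was measured only by a cluster shared with Rpl32l. This cluster read 2366, 3772 and 3528 in KO and 2804, 2380 and 2017 in WT. After normalization every KO array was above every WT array, by 0.90, and by 0.95 without KO replicate 1; it was not assigned to a gene and not tested. The cluster shared by Bhmt and Bhmt2, the methyltransferases that use betaine to remake methionine, read 1151, 1719 and 1497 in KO and 2647, 2211 and 1682 in WT and differed by -0.05. The cluster that carries Bhmt alone read 3.19 to 24.6 in the 6 arrays and was too dim to be tested.

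None of 3 genes of proline breakdown passed in both tests. Prodh2, which oxidises hydroxyproline, read 364, 629 and 677 in KO and 1425, 1276 and 1105 in WT. All KO arrays were below all WT arrays on both scales. The difference of -0.73 ± 0.17 missed the threshold (adjusted p = 0.052 in limma) and without KO replicate 1 it was -0.54 and passed both tests (larger adjusted p = 0.011). Prodh, the proline oxidase, read 294, 979 and 1007 in KO and 1232, 1359 and 977 in WT. It was 1.40 below the WT mean in KO replicate 1 but 0.11 and 0.21 above it in replicates 2 and 3, for a difference of -0.36 ± 0.36, and 0.16 without KO replicate 1. Aldh4a1, which takes the product of Prodh to glutamate, differed by 0.02.

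Enzymes of branched-chain amino acids and propionate did not pass in both tests in any of 9 cases. Pcca and Pccb form propionyl-CoA carboxylase, and Mccc1 and Mccc2 form methylcrotonyl-CoA carboxylase, both biotin enzymes. Pcca read 294, 520 and 568 in KO and 956, 912 and 660 in WT, and Pccb read 257, 492 and 486 in KO and 784, 834 and 591 in WT. For both subunits every KO array was below every WT array, and KO replicate 1 was far below. The differences were -0.44 ± 0.19 and -0.43 ± 0.21, and -0.21 and -0.16 without KO replicate 1.

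KO replicate 1 was 0.82 and 0.80 below the WT mean for Mccc1 and Mccc2 as well, and 0.91 and 0.96 below it for Pcca and Pccb. In KO replicates 2 and 3 the deviation of the 4 subunits ran from -0.28 for Pcca to 0.18 for Mccc1. Aldh6a1, the methylmalonate semialdehyde dehydrogenase of valine breakdown, read 551, 1328 and 1222 in KO and 2006, 2211 and 1457 in WT. It deviated from the WT mean by -1.04 in KO replicate 1 and by -0.08 and -0.17 in the others, with a difference of -0.43 ± 0.23. Bckdha and Bckdhb, subunits of the branched-chain ketoacid dehydrogenase, differed by -0.06 and 0.10, Ivd of leucine breakdown by 0.19 and Mmut, which makes succinyl-CoA, by -0.12. Without KO replicate 1 these 4 differences were 0.00, 0.28, 0.35 and 0.00, and that of Aldh6a1 was -0.13.

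**Figure D4:**
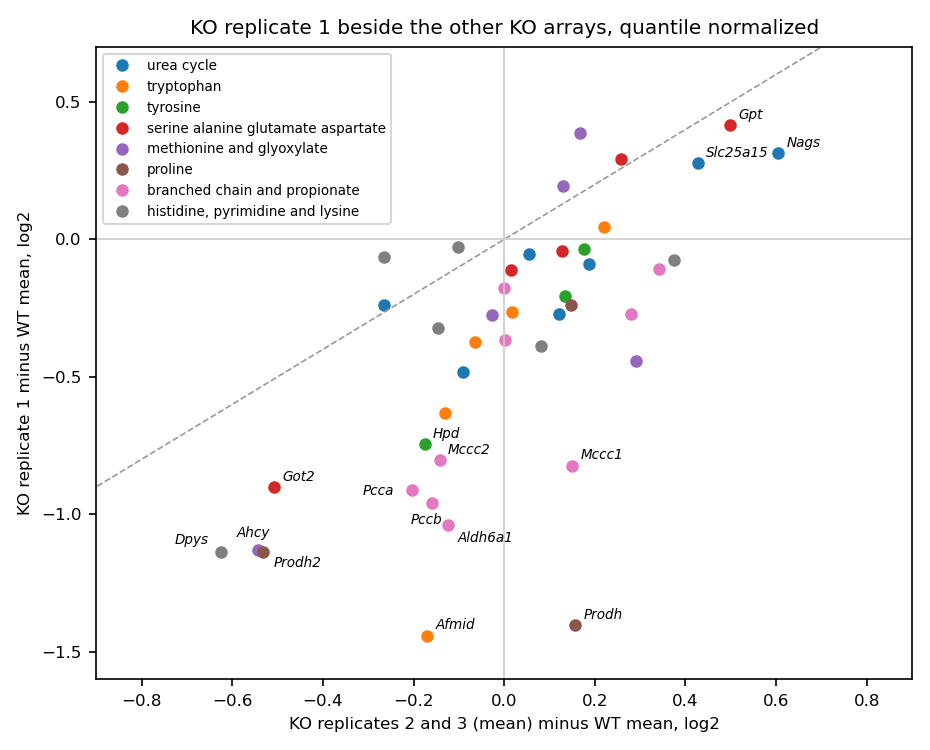
Deviation from the WT mean in KO replicate 1 (y axis) against the mean deviation of KO replicates 2 and 3 (x axis), log2 after quantile normalization, 1 point per gene, coloured by pathway; the dashed line marks equal values. Prodh, Afmid, Aldh6a1 and the carboxylase subunits are far lower in KO replicate 1 than in the other KO arrays, while Dpys, Ahcy, Prodh2 and Got2 are low in all 3 KO arrays.

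The gene that fell belongs to the last group, enzymes of histidine, pyrimidines and lysine. Dpys read 528, 986 and 865 in KO and 2065, 2202 and 1521 in WT. Every KO array was below every WT array, as deposited and after normalization. Dpys fell by 0.80 on the log2 scale, with a standard error of 0.15 and adjusted p = 0.021 (limma), and by 0.63 without KO replicate 1 (larger adjusted p of both tests 0.0015). The call was lost without WT replicate 1, 2 or 3 (adjusted p = 0.079, 0.116 and 0.099) and with median centring in place of quantile normalization (adjusted p = 0.168, with Got2 called in its place). Upb1, which completes pyrimidine breakdown after Dpys, differed by -0.07 ± 0.14.

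In histidine breakdown Uroc1, Amdhd1 and Ftcd act in sequence after histidine has lost its ammonia. Their differences were -0.21, -0.08 and -0.20. Ftcd was 0.06, 0.32 and 0.22 below the WT mean in KO replicates 1, 2 and 3, so that it was not led by KO replicate 1, and it was called lower without that array (-0.27, adjusted p = 0.029 in limma). Aass, the first enzyme of lysine breakdown, was 0.08 below the WT mean in KO replicate 1 and 0.26 and 0.49 above it in the others.

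Across the list, the KO and WT arrays did not overlap after normalization in 11 genes that were lower in KO (25.6%, against 10.1% of all genes) and in 4 that were higher (9.3%, against 11.6%). The lower ones were Slc25a13, Tdo2, Got2, Ahcy, Prodh2, Aldh6a1, Pcca, Pccb, Uroc1, Ftcd and Dpys, and the higher ones Nags, Slc25a15, Gpt and Cbs. On the deposited values 22 were lower (51.2%, against 28.0% of all genes) and none was higher (1.69%). The companion list of other amino acid breakdown enzymes, 52 measured, was similar. There 14 were lower and 5 higher without overlap after normalization, and 23 and 1 on the deposited values.

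Of 52 measured in a companion list of 56 other enzymes of amino acid breakdown, 1 fell and 1 rose (1.92% each, against 1.4% and 0.842% of all genes), with a median difference of -0.06. Without KO replicate 1, 7 were lower (13.5%, against 5.28% of all genes) and 1 higher (1.92%, against 0.957%). Besides Acmsd, which rose, Ppm1k fell; it is the phosphatase that activates the branched-chain ketoacid dehydrogenase. Ppm1k read 709, 845 and 957 in KO and 1889, 1789 and 1492 in WT, without overlap, and its difference was -0.52 ± 0.11 (adjusted p = 0.029 in limma), and -0.51 without KO replicate 1.

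Of 8 measured genes of amino acid synthesis 1 rose (12.5%, against 0.842% of all genes), Asns, which makes asparagine from aspartate. It read 1459, 283 and 404 in KO and 165, 161 and 111 in WT, with KO replicate 1 far above the rest, and differed by 2.37 ± 0.55 (adjusted p = 0.048 in limma), and by 1.63 without KO replicate 1. Of 28 measured amino acid carriers 1 rose (3.57%, against 0.842% of all genes), Slc1a4, a carrier of alanine, serine and cysteine. It read 302, 259 and 218 in KO and 69.3, 66.2 and 64.4 in WT, far apart, and differed by 2.18 ± 0.18 (adjusted p = 0.00036), and by 2.10 without KO replicate 1. The median over the carriers was 0.09, and without KO replicate 1 Slc6a9 and Slc38a2, carriers of glycine and of small neutral amino acids, were lower in both tests (-0.53 and -0.79). These were 7.14% of the carriers, against 5.28% of all genes.

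Zonal genes and regulators were set beside the list. The periportal genes include Cps1, Asl and Arg1 of the list itself, and Hal of the companion list of other breakdown enzymes. Glul and Oat are in both the pericentral list and that companion list, so these lists are not independent. Of 14 measured periportal genes 1 fell and none rose, and of 14 pericentral genes likewise. The share that fell was 7.14% in each, against 1.4% of all genes, of which 0.842% rose. In lists this short 1 call is a large share. The 2 genes were Mfsd2a (-0.75 ± 0.15, adjusted p = 0.024 in limma), a carrier of lysophospholipids, and the sterol hydroxylase Cyp27a1 (-0.94 ± 0.08, adjusted p = 0.00055). The genes named next were chosen after their values were seen. Without KO replicate 1, 3 periportal genes were lower, Mfsd2a, Pck1 (-0.25) of glucose synthesis and the protease Ctsc (-1.18), and none higher. Without it 2 pericentral genes were lower, Cyp27a1 and Glul, and 2 were higher, Cyp7a1 (1.98), the rate-limiting enzyme of bile acid synthesis, and the ammonium carrier Rhbg (1.33). The shares were 21.4% lower among periportal genes, and 14.3% lower and 14.3% higher among pericentral genes. Among all genes 5.28% were then lower and 0.957% higher. The pericentral median was -0.05 with all arrays and 0.16 without KO replicate 1. The median deviation of KO replicate 1 from WT was -0.11 over the periportal and -0.67 over the pericentral genes. Glul, the glutamine synthetase, read 153, 631 and 760 in KO and 1286, 1406 and 1048 in WT, lower in every KO array, with a difference of -1.14 ± 0.49 (adjusted p = 0.309), and was called lower without KO replicate 1 at -0.43 (adjusted p = 0.022). Of 23 measured regulators of hepatocyte and amino acid genes 1 fell (4.35%, against 1.4% of all genes) and none rose (0.842%). The regulator that fell was the fatty acid receptor Ppara (-0.57 ± 0.09, adjusted p = 0.0072 in limma). Without KO replicate 1, Foxo1 (-0.60), Klf15 (-0.39) and Cebpb (-0.60) were lower as well and Onecut1 was higher. Among the regulators 4 were then lower (17.4%, against 5.28% of all genes) and 1 higher (4.35%, against 0.957%). Onecut1, a liver transcription factor, read 217, 980 and 1605 in KO and 217, 159 and 172 in WT. KO replicate 1 was at the WT level as deposited and the other KO arrays were far above it. The difference was 2.26 ± 0.58 (adjusted p = 0.068 in limma) and 3.15 without KO replicate 1.

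Of 8 hepatocyte markers, 6 were measured and none was called in both tests, with a median difference of -0.07. After normalization alone 1 was lower (1.41% of all genes). Their summed deposited intensity was 32700 to 48700 in KO and 51100 to 54800 in WT. The low end in KO was replicate 1. Over all genes tested the deposited sums were also lower in KO, at 4680000 to 5320000 against 5730000 to 7940000 in WT. Of 8 macrophage markers Cd68 alone rose (1.81 ± 0.35, adjusted p = 0.021 in limma), a share of 12.5% against 0.842% of all genes. Cd68 read 306, 139 and 103 in KO and 85.1, 68.3 and 31.1 in WT. It was highest in KO replicate 1, and without that array the difference was 1.42. The macrophage median was 0.50, and the sum was 921 to 1170 in KO and 548 to 1310 in WT. The 8 stellate cell markers had a median of 0.35 with no call and sums of 1840 to 2790 in KO and 1570 to 2560 in WT, and the 8 endothelial markers a median of -0.09 with none. Of the cholangiocyte, lymphocyte, neutrophil and erythroid lists 4, 3, 5 and 5 of 8 markers each were measured. Their medians were 0.05, 0.19, 0.19 and -0.05, with no call in both tests. No measured marker read 0. The part of these cells in the results was not tested.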

How the data were processed

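Total RNA of 6 hepatocyte samples (3 KO, 3 WT, grouped by the genotype in the labels) was hybridised to 1 mouse exon array each. The authors deposited intensity values, for which the submitters' processing notes name PLIER and the mm9 build; the sources used here give neither a version nor a step between arrays. They are linear and positive. Signal over background is not given, and the number of arrays limits the precision.

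Of 238609 rows, 24343 carried 1 gene symbol, 1797 several (assigned to no gene) and 212469 none in the platform annotation used. The deposited intensity was taken as log2(value + 16), rows whose mean fell under the 40th percentile were dropped, and the brightest row stood for a gene. This scale understates differences of dim genes. Genes were compared in limma 3.58.1 (R 4.3.3; no covariates, variances moderated by eBayes along the intensity trend), with Benjamini-Hochberg adjustment over 19123 genes, before and after quantile normalization of all rows. On the deposited values limma pooled the variances of genes of like intensity fully (infinite prior degrees of freedom). Exact permutation of 3 against 3 arrays cannot give a p under 0.1. The fit was tested on simulated data with 200 changed genes. The simulation used the same spread for all genes, a single scale and no outlying array, so it does not measure how reliable the calls here are.

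The genes, lists and rules were chosen with earlier results of these data known. Values in every array are given for urea cycle genes, genes called in both tests and the 8 largest differences among the rest; other genes with such values were added after seeing them. Companion lists covered other amino acid breakdown, synthesis, carriers, regulators, zonal genes and cell type markers. Alternatives were pseudocounts of 1 and 64, no filter and the 60th percentile, median centring, cyclic loess, either scale alone, no trend, robust variances, array weights, the median of a gene's rows and leaving out each array. Promoters came from RefSeq (GRCm38.p6); other sequences were not used.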

Additional observations from a re-analysis of the deposited data

How the results depend on the processing

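With either scale alone, 14 genes of the list were lower and 0 higher on the deposited values and 1 was lower and 1 higher after quantile normalization; over all genes 1311 were lower on the deposited values and 522 higher after quantile normalization, against 267 lower and 161 higher in both. The median over the list was -0.56 on the deposited values and -0.24 with median centring, which moved the median of all genes to -0.44 and -0.12. With array weights 6 genes of the list were lower, and 1316 lower and 545 higher over all genes. With a pseudocount of 64, cyclic loess or robust variances 2 were lower, Dpys and Prodh2, beside 281, 313 and 272 lower over all genes. With median centring 1 was lower, Got2 and not Dpys, beside 210 over all genes. Leaving out 1 array gave 0 to 5 lower and 0 higher genes of the list, a median of -0.12 to 0.02, and 84 to 1010 lower and 83 to 183 higher genes in all. The lowest count for the list came without any single WT array and the highest without KO replicate 1. The count without KO replicate 3 was 3, beside 191 lower over all genes. Signs turned for Cps1 (-0.27), Arg1 (-0.48), Slc25a15 (-0.16) and Gpt (-0.030) on the deposited values, Arg1 with median centring (-0.16), Otc with array weights (0.093), and when an array was left out Otc (-0.080 to 0.12) and Arg1 (-0.0066 to 0.056). Of the alternatives for the 16 genes with full values, 250 gave the same direction and call, 23 added a call, 4 lost that of Dpys and 11 turned the sign. No paired analysis was possible because the labels give the 2 groups no shared replicate numbers. The causes were not tested.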
